A study of Mus musculus with 6 samples.

Results

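The metabotropic glutamate receptors examined here are the products of 6 genes, Grm2, Grm3, Grm4, Grm5, Grm7 and Grm8. They were taken by gene symbol, matched to the Ensembl identifiers of the count table, and make up 6 of its 52550 genes. Events of the splicing table were taken by the same symbols, which gave 13 of 40961 events. RNA of the whole hippocampus was sequenced from 3 control and 3 L-DL KD samples of male wild-type C57BL/6 J mice. All mice received adeno-associated virus (AAV) in the CA1 area of both hemispheres at 8 weeks of age. The virus of the controls carried a control shRNA and that of the other group shRNAs against L-DL, the long isoform of hnRNP D-like, an RNA-binding protein encoded by Hnrnpdl. The L-DL shRNAs were driven by H1 promoters, which are not restricted to a cell type. The L-DL virus also carried a CamkIIα promoter for a green fluorescent marker, and the control virus had the higher titre according to the methods. The sample titles call the controls WT, and the labels call the second group knockout in one place and KD in another. The injections and viruses described here were taken from the paper.

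Metabotropic glutamate receptors are dimeric G protein-coupled receptors that respond to glutamate over a slower time course than the ion channel receptors. Group I receptors, among them the product of Grm5, couple to Gq, phospholipase C and calcium release and are mostly postsynaptic, and in CA1 they can trigger a form of long-term depression. Group II (Grm2 and Grm3) and most group III receptors (Grm4, Grm7 and Grm8) couple to Gi/o, lower cyclic AMP and act largely as presynaptic brakes on transmitter release, while Grm3 is also expressed by astrocytes.

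Reads counted on genes ranged from 16052529 to 16995425 in the controls and from 16525467 to 17913064 in the other group. Hnrnpdl, the targeted gene, did not fall. It had 176, 183 and 170 CPM (read counts relative to the library's total, adjusted by edgeR's TMM factors) in the controls and 217, 150 and 173 CPM in the other libraries, with a log2 fold change of 0.03 (SE 0.12, adjusted p = 0.897, edgeR). The count covers all isoforms, so L-DL was not measured apart here. The paper assessed the knockdown by L-DL protein on immunoblots of injected hippocampus and describes the injected mice as having reduced L-DL. This group is named below by its label only, as the KD-labelled libraries. Of 11 general neuronal marker genes, 9 were lower and 2 (Nefl and Nefm) higher at an adjusted p under 0.05, and their summed level was 9320 to 9820 CPM in the controls and 6160 to 6830 CPM in the KD-labelled libraries. All 8 microglial markers were higher, and their summed level was 899 to 1130 CPM in the controls and 1970 to 2420 CPM in the other group. Over all 17621 genes tested, 15.1% were lower and 15.6% higher at an adjusted p under 0.05 (edgeR). Choroid plexus markers varied within both groups, from 433 to 4600 CPM and from 31.1 to 5160 CPM. No marker in the 12 lists examined was at 0 in all libraries. In bulk tissue, fewer cells of a type and less RNA per cell cannot be told apart. The labels do not say whether the samples came from separate mice, so p-values measure the spread between these samples only.

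All 6 receptor genes were expressed and passed the filter on low counts. Grm5, Grm4 and Grm7 were lower in the KD-labelled libraries, Grm2 was higher, and Grm3 and Grm8 did not pass the threshold of the test. Thus 3 of 6 receptors were called lower, where 15.1% of the 17621 genes tested were called lower, and 1 was called higher, where 15.6% of all genes were. In either direction, 30.7% of all genes were called. The median log2 fold change of the 6 receptors was -0.52, beside 0.006 for all genes tested. In 5 of the 6 receptors the libraries of the groups did not overlap, which was so in 47.2% of all genes.

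**Figure D1:**
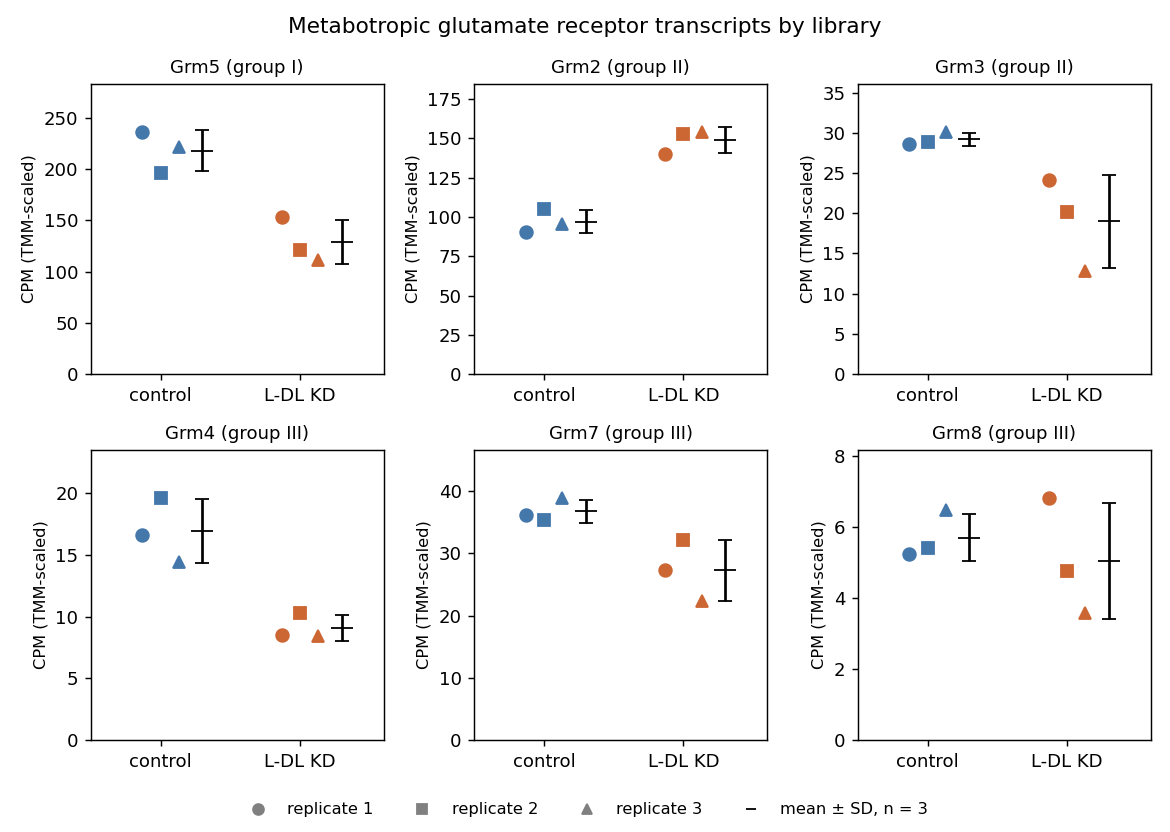
Level of each receptor transcript in CPM (vertical axis, from 0, with a scale for each receptor) in the 3 control libraries (blue) and the 3 KD-labelled libraries (orange), with the replicate shown by the symbol and the mean and SD in black. The groups lie apart for every receptor except Grm8, and Grm2 alone is higher in the KD-labelled libraries.

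Grm5 (ENSMUSG00000049583, GRCm38 chr7:87584168-88134907, plus strand) encodes mGlu5, the main group I receptor of hippocampal pyramidal cells. It had 3830, 3340 and 3481 counts in control replicates 1 to 3 and 2780, 2170 and 1871 counts in the KD-labelled libraries, or 236, 196 and 221 CPM against 153, 121 and 111 CPM. Every control lay above every library of the other group. The mean fell from 218 ± 19.9 CPM (SD, n = 3) to 129 ± 21.7 CPM (SD, n = 3). The log2 fold change was -0.76 (SE 0.12, 95% interval -1.04 to -0.48, adjusted p = 0.00251, quasi-likelihood test of edgeR, adjusted by Benjamini-Hochberg), a level 0.591 times that of the controls. This change stood at percentile 7.69 of all genes tested. The fall moved with that of the neuronal markers above, whose summed level had a log2 ratio of -0.54 between the group means; their part in the result was not tested.

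The Grm5 gene has an alternative coding exon of 96 nt (chr7:88116193-88116288, exon 8 of transcript Grm5-204) that adds a stretch to the intracellular tail and separates the isoforms usually called mGlu5a and mGlu5b. Its sequence is shown because it is the best covered of the receptor exons whose mean share of inclusion lay between 0.05 and 0.95. It is given 5′ to 3′ from the GENCODE vM21 transcripts of GRCm38, with the exon in capitals and 12 bases of each neighbouring exon in lower case.
Grm5 96 nt exon: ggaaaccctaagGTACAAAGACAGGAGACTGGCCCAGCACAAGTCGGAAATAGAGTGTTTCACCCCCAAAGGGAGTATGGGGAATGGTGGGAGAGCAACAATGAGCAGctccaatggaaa
The exon length is a multiple of 3, so that its inclusion keeps the reading frame, and 52.1% of its bases are G or C.

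Grm2 (ENSMUSG00000023192, chr9:106643095-106656082, minus strand) encodes mGlu2, a group II receptor of presynaptic terminals, in the hippocampus chiefly those of dentate granule cells and of entorhinal fibres. It had 1473, 1785 and 1504 counts in the controls and 2540, 2735 and 2591 counts in the KD-labelled libraries, or 90.6, 105 and 95.3 CPM against 140, 153 and 154 CPM. All 3 KD-labelled libraries were above all controls. The mean rose from 96.9 ± 7.24 CPM (SD, n = 3) to 149 ± 8.06 CPM (SD, n = 3). The log2 fold change was 0.62 (SE 0.08, 95% interval 0.44 to 0.80, adjusted p = 0.000736, edgeR), a level 1.54 times that of the controls, at percentile 87.4 of all genes. Of 8 dentate granule cell markers, 1 (Prox1) was higher, 4 were lower and 3 did not pass the test, where 15.6% of all genes were higher and 15.1% lower. The summed level of these markers was 487 to 554 CPM in the controls and 432 to 457 CPM in the other group. The antisense gene Gm28111 overlaps exon sequence of Grm2 and had 2 to 6 counts per library. Since the library kit does not mark strand, reads from the pair cannot be told apart where they overlap.

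Grm3 (ENSMUSG00000003974, chr5:9485541-9725170, minus strand) encodes mGlu3, the group II receptor found on astrocytes as well as neurons. Its counts were 465, 492 and 475 in the controls and 439, 359 and 215 in the KD-labelled libraries, which corresponds to 28.6, 28.9 and 30.1 CPM and to 24.1, 20.1 and 12.8 CPM. The groups did not overlap, but the KD-labelled libraries were spread widely, with replicate 3 the lowest. The group means were 29.2 ± 0.797 CPM (SD, n = 3) for the controls and 19.0 ± 5.75 CPM (SD, n = 3) for the others. The log2 fold change of -0.62 (SE 0.20, 95% interval -1.08 to -0.15) just missed the threshold with an adjusted p of 0.0505 (edgeR). It passed without L-DL KD replicate 1 (log2 fold change -0.82, adjusted p = 0.0043) and without L-DL KD replicate 3 (-0.40, adjusted p = 0.043), and with DESeq2 (adjusted p = 0.0113). It rose to 0.102 without L-DL KD replicate 2 and to 0.114, 0.118 and 0.131 without control replicate 1, 2 or 3 (edgeR). Of 8 astrocyte markers, 4 were lower, 1 (Aqp4) was higher and 3 did not pass, where 15.1% of all genes were lower and 15.6% higher. Their summed level was 5100 to 5590 CPM in the controls and 4150 to 5040 CPM in the other group. In KD-labelled replicates 1, 2 and 3, the astrocyte sum was 4150, 4750 and 5040 CPM, the neuronal sum 6810, 6830 and 6160 CPM, and the summed level of 8 interneuron markers 453, 336 and 245 CPM. The part of these cell types in the Grm3 values was not tested.

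The 2 receptors of group II thus had log2 fold changes of opposite sign. Per kb of exon, Grm2 was 1.98, 2.26 and 1.97 times the level of Grm3 in the controls and 3.61, 4.75 and 7.52 times in the KD-labelled libraries. The ratio was higher in each of the latter than in each control (two-sided exact permutation p = 0.1, and 3 libraries against 3 cannot give less).

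Grm4 (ENSMUSG00000063239, chr17:27422387-27521403, minus strand) encodes mGlu4, a presynaptic group III receptor best known from the cerebellum. It had 270, 333 and 227 counts in the controls and 155, 184 and 142 counts in the KD-labelled libraries, or 16.6, 19.6 and 14.4 CPM against 8.53, 10.3 and 8.45 CPM. The groups lay apart. The mean fell from 16.9 ± 2.59 CPM (SD, n = 3) to 9.09 ± 1.05 CPM (SD, n = 3), with a log2 fold change of -0.89 (SE 0.16, 95% interval -1.25 to -0.53, adjusted p = 0.00338, edgeR). At 0.540 times the control level, this was the lowest ratio of the 6 receptors, at percentile 5.53 of all genes. The intervals of Grm4 and Grm5 overlap.

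Grm7 (ENSMUSG00000056755, chr6:110645581-111567230, plus strand) encodes mGlu7, the group III receptor located in the active zone of presynaptic terminals. It had 587, 602 and 613 counts in the controls and 498, 573 and 375 counts in the KD-labelled libraries, or 36.1, 35.4 and 38.9 CPM against 27.4, 32.1 and 22.3 CPM. The groups did not overlap, with a gap of a few CPM between the lowest control and L-DL KD replicate 2. The mean fell from 36.8 ± 1.84 CPM (SD, n = 3) to 27.3 ± 4.88 CPM (SD, n = 3), with a log2 fold change of -0.43 (SE 0.13, 95% interval -0.73 to -0.13, adjusted p = 0.0357, edgeR). The call was lost when control replicate 1, 2 or 3 was left out (adjusted p = 0.0905, 0.0792 and 0.12) and when L-DL KD replicate 3 was (log2 fold change -0.30, adjusted p = 0.073). The antisense gene Gm20387, with 15 to 28 counts per library, overlaps exon sequence of Grm7.

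Elfn1, the gene of a postsynaptic protein that recruits mGlu7 to synapses on interneurons, had 30.9, 28.7 and 25.0 CPM in the controls and 10.7, 5.09 and 5.12 CPM in the KD-labelled libraries. Its log2 fold change was -2.01 (SE 0.29, adjusted p = 0.00208, edgeR). Of 8 interneuron markers, 5 were lower and 3 did not pass the test, where 15.1% of all genes were lower. The summed level of these markers was 632 to 706 CPM in the controls and 245 to 453 CPM in the other group. Their part in the values of Elfn1 and the group III receptors was not tested.

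The Grm7 gene has an alternative exon of 92 nt near its 3′ end (chr6:111501510-111501601, exon 10 of Grm7-201), whose use changes the C terminus of the receptor between the isoforms usually called mGlu7a and mGlu7b. It is shown 5′ to 3′ from the same GENCODE transcripts because the reading frame ends within it, at the stop codon in capitals.
Grm7 92 nt exon: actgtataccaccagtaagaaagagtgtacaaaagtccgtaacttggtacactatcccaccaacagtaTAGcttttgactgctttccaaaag
The 68 bases before the stop codon are coding, and 40.2% of the exon is G or C.

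Grm8 (ENSMUSG00000024211, chr6:27275119-28135178, minus strand) encodes mGlu8, a presynaptic group III receptor. It had 85, 92 and 102 counts in the controls and 124, 85 and 60 counts in the KD-labelled libraries, or 5.23, 5.40 and 6.47 CPM against 6.82, 4.76 and 3.57 CPM. The KD-labelled libraries lay on both sides of the controls. The log2 fold change was -0.17 (SE 0.26, 95% interval -0.75 to 0.41, adjusted p = 0.651, edgeR), and it was 0.03 without L-DL KD replicate 3. The interval includes the values of Grm3 and Grm7 as well as 0, so that neither a fall of that size nor no change can be told from these libraries. The microRNA gene Mir592 overlaps exon sequence of Grm8 on the same strand and had 0 counts in all libraries.

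**Figure D2:**
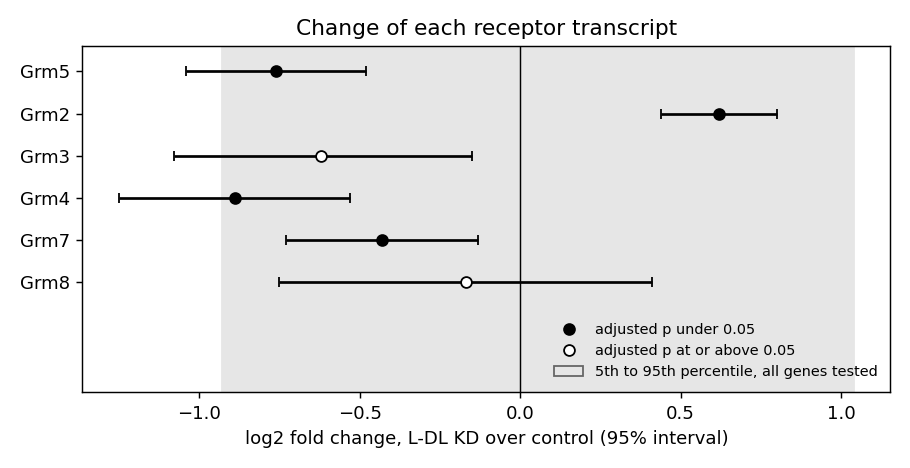
Log2 fold change of each receptor between the KD-labelled libraries and the controls (horizontal axis) with its 95% interval, filled where the adjusted p was under 0.05. The grey band spans the 5th to 95th percentile of the 17621 genes tested, -0.93 to 1.04, and all 6 values lie inside it, from -0.89 for Grm4 to 0.62 for Grm2.

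Levels were compared between the receptors per kb of exon, using the union of each gene's annotated exons, which ranged from 3.05 kb for Grm3 to 10.25 kb for Grm5. In the controls, Grm5 (19.1 to 23.0 CPM per kb) and Grm2 (18.5 to 21.4) were the highest, and their libraries overlapped. They were followed by Grm3 (9.38 to 9.87), Grm7 (6.0 to 6.60), Grm4 (2.41 to 3.27) and Grm8 (0.528 to 0.653 CPM per kb), with no overlap between these neighbours. In the KD-labelled libraries, Grm2 (28.6 to 31.5 CPM per kb) stood above Grm5 (10.9 to 14.9) in every library. Grm3 (4.19 to 7.92) and Grm7 (3.79 to 5.45 CPM per kb) overlapped there, while Grm4 (1.41 to 1.72) and Grm8 (0.361 to 0.689) stayed below them.

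The ratio of Grm2 to Grm5 per kb was 0.806, 1.12 and 0.906 in the controls and 1.92, 2.64 and 2.90 in the KD-labelled libraries, so the groups did not overlap (two-sided exact permutation p = 0.1). By contrast, the ratio of Grm5 to Grm3 was 2.22 ± 0.218 (SD, n = 3) and 2.09 ± 0.434 (SD, n = 3), and its libraries overlapped (exact permutation p = 0.7). The ratio of Grm7 to Grm4 was 2.26 ± 0.456 (SD, n = 3) and 3.03 ± 0.310 (SD, n = 3), with exact permutation p = 0.2.

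As a share of the summed level of the 6 receptors per kb, Grm2 made up 30.7, 35.8 and 32.2% in the controls and 49.1, 54.5 and 60.5% in the KD-labelled libraries. The share of Grm5 was 38.1, 32.0 and 35.6% in the controls and 25.6, 20.6 and 20.8% in the other group. Both shifts separated the groups fully. The mean share of Grm3 was 15.9 ± 0.383% among controls and 11.0 ± 2.81% (SD, n = 3) among the others, that of Grm7 was 10.4 ± 0.467% and 8.25 ± 1.13%, and that of Grm4 was 4.68 ± 0.747% and 2.72 ± 0.275%. These 3 shares were also lower without overlap, and all 5 had an exact permutation p of 0.1, two-sided. Without division by length, the changes of the Grm3 and Grm7 shares were -1.69 and -1.08 percentage points, against -4.85 and -2.11 per kb. Grm8 made up 0.955 ± 0.108% and 0.904 ± 0.253% (SD, n = 3; exact permutation p = 0.8). The sum itself was 60.3 ± 0.349 CPM per kb in the controls and 55.9 ± 3.28 CPM per kb in the other group (SD, n = 3; exact permutation p = 0.1). Shares of a whole are tied to each other, so that a higher share of Grm2 lowers the others.

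**Figure D3:**
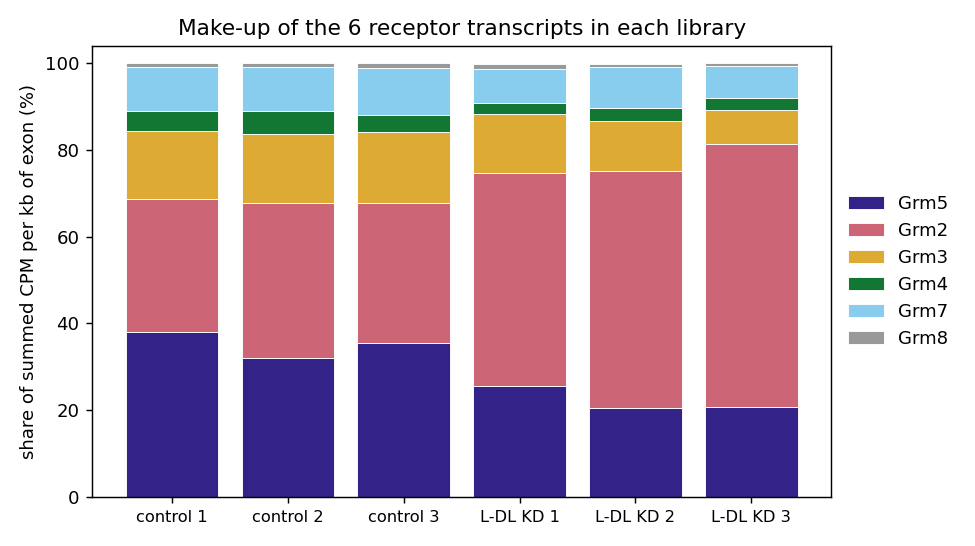
Share of each receptor in the summed CPM per kb of exon of the 6 receptors (vertical axis, percent), with 1 bar per library. Grm2 takes 30.7 to 35.8% of the bar in the controls and 49.1 to 60.5% in the KD-labelled libraries, and Grm5 shrinks from 32.0 to 38.1% to 20.6 to 25.6%.

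The splicing table listed 13 events in these genes, 11 of exon skipping and 2 of other types, with 5 in Grm5, 3 each in Grm2 and Grm7, 1 each in Grm4 and Grm8 and 0 in Grm3. PSI, the share of transcripts that include a segment, was computed for each library from the junction counts and the effective lengths of both forms. No change of inclusion was called in the receptor events that were tested, and 6 events did not meet the count limits of the test. Of the 7 events with enough counts for edgeR's test of inclusion against skipping, 0 had an adjusted p under 0.05 (adjusted p from 0.366 to 0.989) and 1 an unadjusted p under 0.05. Over all 18829 events tested, 0.223% were called at the adjusted p and 13.1% had an unadjusted p under 0.05. With limma in place of edgeR, 0 of all events were called. In 0 of the 13 events did the groups lie apart, a share that was not computed over all events. With at most 10 skipping counts over the 6 libraries, 8 of the 13 could hardly separate the groups. The splicing table gives its values without replicate numbers, so the values below are in the order of that table.

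The 96 nt exon of Grm5, whose sequence is given above, was covered by 92 to 208 junction counts per library. Its PSI was 0.758, 0.780 and 0.801 in the controls and 0.940, 0.701 and 0.700 in the KD-labelled libraries. The means were 0.779 ± 0.0216 and 0.780 ± 0.138 (SD, n = 3), and 1 KD-labelled library lay above all controls and 2 below. The form with the insert was thus the more frequent one in both groups. The change of the odds of inclusion was 0.04 on the log2 scale (95% interval -1.11 to 1.19, adjusted p = 0.989, edgeR). Without the first KD-labelled value, the change of the mean PSI was -0.0786, and it was -0.00977 to 0.0411 without any other value.

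The 92 nt exon of Grm7 was included in a minority of transcripts in every library. Its PSI was 0.256, 0.199 and 0.302 in the controls and 0.401, 0.139 and 0.301 in the KD-labelled libraries, at 22 to 39 counts per library. The groups overlapped, and the log2 change of the odds was 0.11 (95% interval -1.61 to 1.83, adjusted p = 0.977, edgeR). The interval is wide and includes both a doubling and a halving of the odds.

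A noncoding exon of 204 nt of Grm5 (chr7:87586515-87586718, in transcript Grm5-205) had a PSI of 0.284, 0.487 and 0.421 in the controls and 0.60, 0.280 and 0.259 in the KD-labelled libraries, at 20 to 54 counts per library (adjusted p = 0.943, edgeR). The KD-labelled libraries spanned the whole range of the controls and more. Without the first KD-labelled value, the change of the mean PSI was -0.128, and it was -0.0744 to 0.0426 without any other value. The 887 nt second exon of Grm4 (chr17:27502647-27503533), of which 519 nt are coding, had a PSI of 1 in all 3 controls and of 0.571, 1 and 1 in the other group, from 5 to 17 counts per library, too few for the test.

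**Figure D4:**
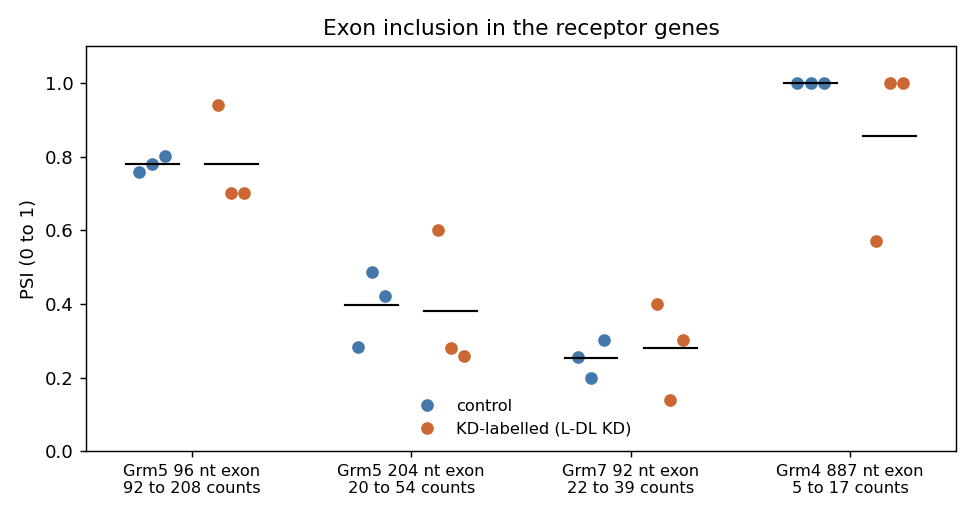
PSI (vertical axis, 0 to 1) of the 4 receptor exons with a mean PSI between 0.05 and 0.95 and a mean of at least 10 junction counts, in controls (blue) and KD-labelled libraries (orange), with the group means as black lines and the lowest and highest junction counts per library under each name. The points of the groups overlap or touch for every exon, and the KD-labelled libraries are the more widely spread. The first KD-labelled value in the order of the splicing table is the highest of its group for the Grm5 and Grm7 exons and the lowest for Grm4.

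The event with the lowest p among the receptors was the retention of an 834 nt stretch inside a long exon of Grm2 (chr9:106647271-106648104). Its inclusion counts were 279, 301 and 261 in the controls and 466, 444 and 458 in the KD-labelled libraries, beside skipping counts of 3, 0 and 4 and of 0, 1 and 0. The log2 change of the odds was 3.10 (95% interval 0.16 to 6.05, adjusted p = 0.366, edgeR), which rests on 8 skipping counts. The inclusion counts were higher in the KD-labelled libraries, as the gene's counts were. The 2 other Grm2 events at this place, which share their skipping reads, had 17 skipping counts and an adjusted p of 0.784. In 8 of the 13 receptor events, the skipping form had at most 10 counts over the 6 libraries. Among them are the 936 nt exons of Grm7 and Grm8, which have the same length and are exon 8 of both genes, with 2 skipping counts against 477 inclusion counts in Grm7 and 1 against 77 in Grm8.

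Genes that work with the receptors were examined as 6 lists. Of their 51 tested genes, 24 were lower, 5 higher and 22 did not pass the test, with a median log2 fold change of -0.36. Over all genes tested, 15.1% were lower and 15.6% higher, and the median was 0.006. The lists were chosen with earlier results of these data known, so the comparison is a description only. The general neuronal markers above had a median log2 fold change of -0.55, and their part in these lists was not tested. The number of list genes called was 29, and 20 to 32 with a library left out. Grm6, the receptor of retinal bipolar cells, had 0, 3 and 0 counts in the controls and 0 in every library of the other group, and was not tested.

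In the Gq pathway downstream of group I, 4 of 8 genes were lower and 0 higher, beside 15.1% and 15.6% of all genes. The smallest adjusted p-values belonged to Prkca, a calcium-dependent protein kinase C, and Dagla, the diacylglycerol lipase that makes the endocannabinoid 2-AG. Prkca fell from 303 ± 11.1 to 136 ± 4.53 CPM (SD, n = 3; log2 fold change -1.16, adjusted p = 3.46e-05, edgeR). Dagla fell from 245 ± 6.12 to 115 ± 8.39 CPM (SD, n = 3; log2 fold change -1.09, adjusted p = 4.94e-05, edgeR). In both, the groups lay apart. In the Gi/o pathway of groups II and III, 5 of 12 genes were lower and 2 higher. Gnai2, a Gi α subunit that microglia also express at a high level, rose from 260 ± 24.8 to 390 ± 29.6 CPM (SD, n = 3; adjusted p = 0.00174, edgeR), while Gnao1, the Go α subunit abundant in neurons, fell from 731 ± 19.8 to 530 ± 33.7 CPM (SD, n = 3; adjusted p = 0.00191). The microglial and neuronal marker sums given above moved in the same directions as this pair, and their part was not tested.

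Among binding partners and scaffolds, 7 of 11 genes were lower and 0 higher, beside 15.1% and 15.6% of all genes. Beside Elfn1, the smallest adjusted p was that of Ncdn, whose product neurochondrin binds mGlu5, with a log2 fold change of -0.48 (SE 0.09, adjusted p = 0.00417, edgeR). Of 7 genes of receptor desensitization and RGS proteins, which shorten G protein signalling, 4 were lower and 2 higher. Arrb1, a β-arrestin, fell from 257 ± 0.996 to 192 ± 10.3 CPM (SD, n = 3; adjusted p = 0.00207, edgeR), and Rgs8 from 109 ± 3.39 to 50.1 ± 12.6 CPM (SD, n = 3; adjusted p = 0.00239). The higher ones were Rgs2 and Rgs4, with log2 fold changes of 0.30 and 0.47, named after their values were seen.

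Among genes of ligand supply and removal, 2 of 8 were lower and 0 higher, beside 15.1% and 15.6% of all genes. The lower ones were Slc1a3, the astrocytic glutamate transporter GLAST (log2 fold change -0.40, adjusted p = 0.00364, edgeR), and Slc17a7, the vesicular glutamate transporter VGLUT1 (-0.49, adjusted p = 0.0249). Slc1a3 is also in the astrocyte marker list and Slc17a7 in the neuronal one, and the part of these cell types was not tested. Of 5 effectors of the depression triggered by group I receptors, 2 were lower, 1 (Eef2k, 0.28) was higher and 2 did not pass. The shares over all genes were again 15.1% lower and 15.6% higher. Arc, an activity-induced gene whose protein promotes removal of AMPA receptors, had 337, 412 and 321 CPM in the controls and 65.2, 78.6 and 66.3 CPM in the KD-labelled libraries. Its log2 fold change of -2.35 (SE 0.12, adjusted p = 2.62e-05, edgeR) was the lowest of all genes in these lists. Fmr1, which encodes a translational repressor, had a log2 fold change of -0.26 (adjusted p = 0.0238, edgeR).

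**Figure D5:**
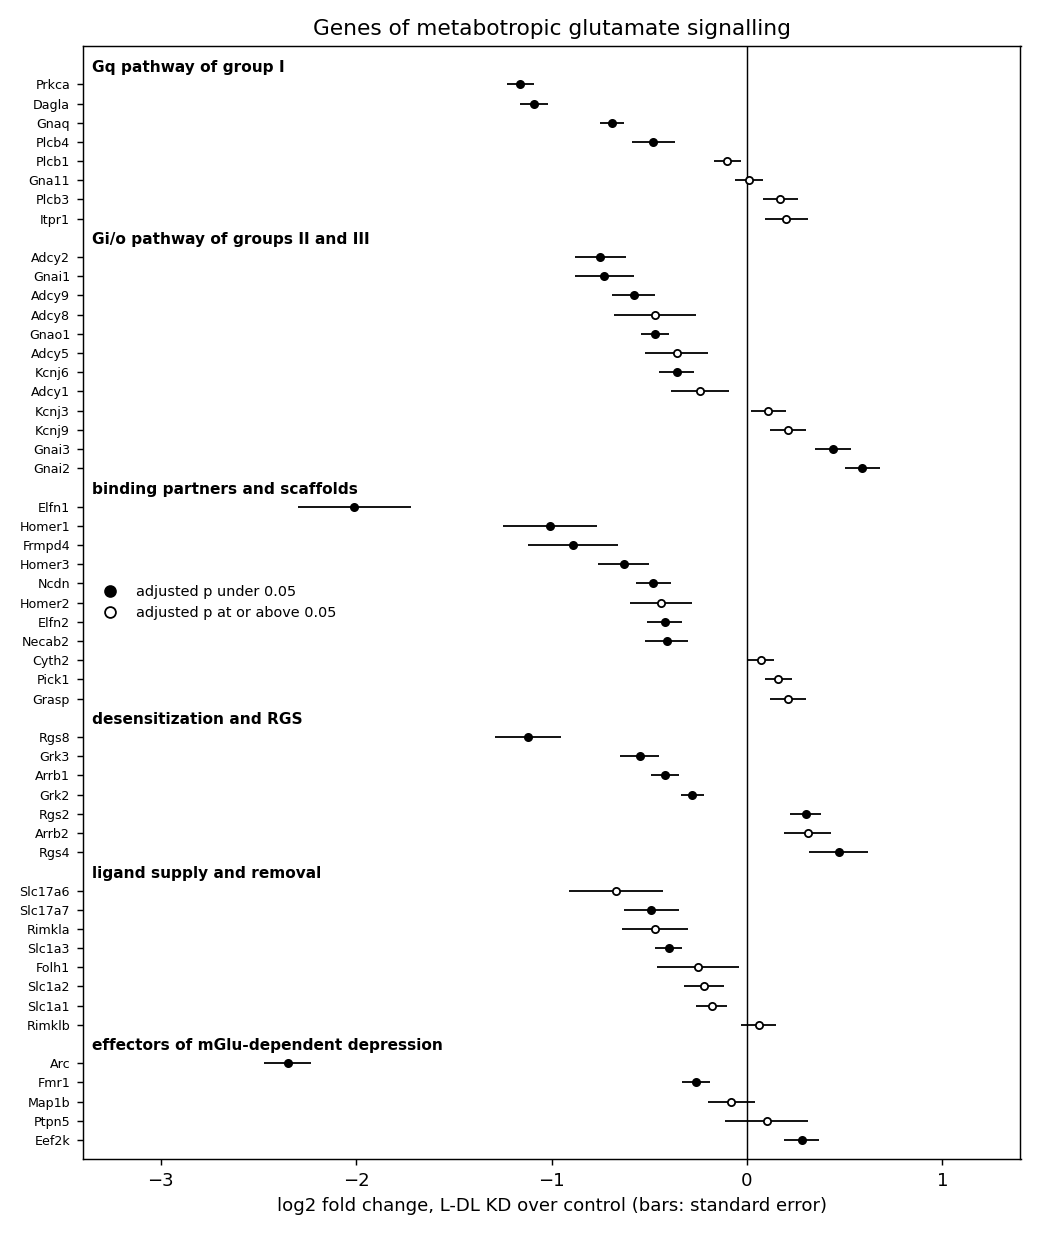
Log2 fold change (horizontal axis, KD-labelled libraries over controls, bars 1 standard error) of the 51 tested genes in 6 lists around the receptors, filled where the adjusted p was under 0.05. Most filled points lie left of 0, with Arc at -2.35 and Elfn1 at -2.01 the farthest, and 5 lie to the right.

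The genes whose log2 CPM followed each receptor most closely over the 6 libraries were sought among 16117 genes. Each correlation contains the difference between the groups and is a description over 6 points from the same libraries. For Grm5 the closest was Me3 (Pearson's r = 0.9996). For Grm2 they were Dtwd2 (0.9984) and Aaas (0.9960), for Grm3 Mfsd4b4 (0.9978) and Lin7b (0.9938), and for Grm4 Znrf1 (0.9966) and Dennd1a (0.9964). For Grm7 they were 2210408F21Rik (0.9988) and St6gal2 (0.9985), and for Grm8 Ccdc181 (0.9935) and Gm17709 (0.9914).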

How the data were processed

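Hippocampal RNA of 3 control and 3 L-DL KD samples was analysed from the authors' deposited tables, with groups taken from the labels. What the authors deposited for gene expression are raw, unnormalized read counts of Ensembl genes, from unstranded, oligo(dT)-selected libraries aligned to GRCm38. They also deposited junction counts of the inclusion and skipping form of each splicing event from rMATS, with effective lengths. The submitters' notes name HISAT2 (version 2.1.0), HTSeq (version 0.6.1) and Bowtie (version 1.1.2), and strand use in counting is not given in the sources used here. The rMATS columns of PSI, PSI differences, p-values and FDR are the authors' own comparison and were not used. The first group of that table was read as L-DL KD from the title and the paper's definition of the PSI change. As a check over 6733 genes (not independent of each other), the log2 ratio of its summed junction counts had a Pearson's r of 0.947 with the gene log2 fold change.

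Genes reaching 10 counts in 3 or more libraries were kept, TMM factors were computed, and counts were fitted by edgeR (version 4.0.16, quasi-likelihood) in R (version 4.3.3), at a Benjamini-Hochberg adjusted p under 0.05. Inclusion and skipping counts were tested with edgeR where an event averaged 20 or more counts and each form 1 or more, with an effect for each library. Single values were compared, 3 against 3, by the exact permutation test, two-sided, whose smallest p is 0.1. Both models were also run on simulated data, and the outcome is not reported here. Symbols, exons and sequences came from GENCODE vM21, which matched 52403 gene IDs. Alternatives were library size scaling, other count filters, DESeq2 (version 1.42.0), limma (version 3.58.1) on the log2 ratio with a pseudocount of 0.5, blocking by replicate number, and omitting each library. The text names all 6 receptors, the 2 genes with the smallest adjusted p in each list, the 2 genes with the highest correlation with each receptor, and events that averaged 10 or more counts with a mean PSI from 0.05 to 0.95. The receptors and lists were chosen with earlier results of these data known. Protein sequences were not used here. Some genes of the lists and 1 gene similar to Grm5 are not reported here.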

Additional observations from a re-analysis of the deposited data

How the results depend on the processing

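Grm2, Grm4 and Grm5 kept their direction and stayed under an adjusted p of 0.05 in all 11 alternatives. For Grm3, the adjusted p went under 0.05 with no filter (log2 fold change -0.62, adjusted p = 0.0399), with at least 50 counts in 3 libraries (-0.62, 0.0477), with DESeq2 (-0.62, 0.0113) and with the replicate block (-0.66, 0.0487), and its log2 fold change was -0.82 to -0.40 with a library left out. It stayed above 0.05 with library size scaling (-0.59, 0.0583) and without control replicate 1, 2 or 3 or L-DL KD replicate 2 (0.102 to 0.131). For Grm7 the call was lost with the replicate block (-0.44, adjusted p = 0.0537), and its log2 fold change was -0.56 to -0.30 with a library left out. That of Grm8 was -0.45 to 0.03. The cause was not tested. The block is a hint only, since the samples share only a number: deviations of same-numbered libraries from their group means had correlations of 0.0626, 0.157 and -0.14, and 4767 genes were called with the block, against 5418 without it. No paired analysis was possible for splicing because its columns carry no replicate numbers.

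With a library left out, 3566 to 6501 genes and 0 to 52 splicing events were called, against 42 events with all libraries, and 3 to 5 receptors; leaving out control replicate 1 or 3 gave 3585 and 3566 genes. With limma 0 events were called, and 2461 had an unadjusted p under 0.05, 1 of them in a receptor. With CPM not divided by length, the share of Grm5 changed by -16.0, that of Grm3 by -1.69 and that of Grm7 by -1.08 percentage points, against -12.8, -4.85 and -2.11 per kb. Library size scaling in place of TMM moved the median log2 fold change of all genes to 0.038, and 56.1% of the called genes were then higher, against 50.9%. Grm8 had 60 to 124 counts per library, and 8 of 13 receptor events had at most 10 skipping counts in all.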
